A study of Drosophila melanogaster with 8 samples.

Results

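The genes described here are those of the fibroblast growth factor (FGF) pathway and of the tracheal and salivary primordia: the ligand genes bnl, ths and pyr, the receptor genes btl and htl, the adaptor gene stumps, and the transcription factor genes trh, vvl and CrebA. They were chosen by their FlyBase symbols, with earlier results of these data known. Of the 9 genes, 8 were matched by their annotated ID to a row among the 17468 gene IDs of each count table. The annotation gives btl, the receptor of the Bnl ligand, the ID FBgn0285896, which matched no row. Whether another ID in the tables stands for btl was not settled, so btl was not analysed here. All 8 matched genes passed the filter on low counts and were tested, among 9360 tested genes in all.

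In the fly, FGF signalling runs through a pair of receptor tyrosine kinases. Btl, with its ligand Bnl, steers the branching of the tracheal system, while Htl, with its ligands Ths and Pyr, spreads the invaginated mesoderm over the ectoderm. Stumps is the adaptor that links either receptor to Ras and MAP kinase. Trh, a bHLH-PAS factor, and Vvl, a POU-domain factor, specify tracheal cells and switch on btl. Trh also acts in the salivary gland, where the leucine-zipper factor CrebA raises secretory capacity.

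RNA came from whole Drosophila melanogaster embryos in 4 groups of 2 libraries each. These were zen[7] homozygotes and zen[7]/TM3, ftz-lacZ heterozygotes at stage 6-7 (gastrula), and the same genotypes at stage 5 (cellular blastoderm). The homeobox gene zen acts in the dorsal ectoderm, TM3 is a balancer of chromosome 3, and ftz-lacZ is a transgene on it, driven by the ftz promoter, that serves as a genotyping mark. Every group carries zen[7] by its label, so no group is wild type. Homozygotes were recognised by PCR from a missing lacZ band, and embryos that carry TM3 on both homologues would show the same band as heterozygotes. RNA was taken from pooled extracts (N = 100 in the labels), and how embryos were assigned to pools is not stated. The p-values therefore measure only the spread between these libraries.

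Counts in genes summed to 29669956 to 37770105 per library. In CPM (read counts scaled to library size with TMM) the RNA of zen had 58.9 and 53.8 in homozygotes, against 41.0 and 58.2 in heterozygotes, at stage 6-7. At stage 5 it had 154 and 134 in homozygotes, against 112 and 106 in heterozygotes, so its level does not check the labels. The stages separated along the first principal component (76% of variance), and a library of each stage stood apart on it. Heterozygous stage 6-7 replicate 1 had a score of 38.9, beside 48.8 to 51.1 for the remaining stage 6-7 libraries. Homozygous stage 5 replicate 1 had a score of -56.2, beside -42.1 to -45.1 for the remaining stage 5 libraries. Genes of the blastoderm stage (slam, nullo, bnk, halo and term, with Sry-alpha at 0 in all libraries) summed to 178 to 229 CPM over the 4 stage 6-7 libraries and to 2943 to 4005 CPM over the 4 stage 5 libraries, of which homozygous replicate 1 was the highest. Of the 8 genes described here, 7 were lower in replicate 1 than in replicate 2 of the homozygotes at stage 5, where 50.3% of all tested genes were. In heterozygotes at stage 6-7 the count was also 7 of 8, where 57.7% of all tested genes were, and the homozygotes of stage 6-7 had 3 such genes and the heterozygotes of stage 5 had 4. Of the markers of blastoderm, mesoderm, pole cells and hemocytes, 2 were called between the genotypes. Hml, a hemocyte gene, was higher in homozygotes at stage 6-7 (log2 1.26, SE 0.279, adjusted p = 0.0342), and nullo, a blastoderm gene, was lower in homozygotes at stage 5 (log2 -1.07, SE 0.223, adjusted p = 0.0287). Of 5 pole cell markers 3 were matched to a row, and nos and vas were not.

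**Figure D1:**
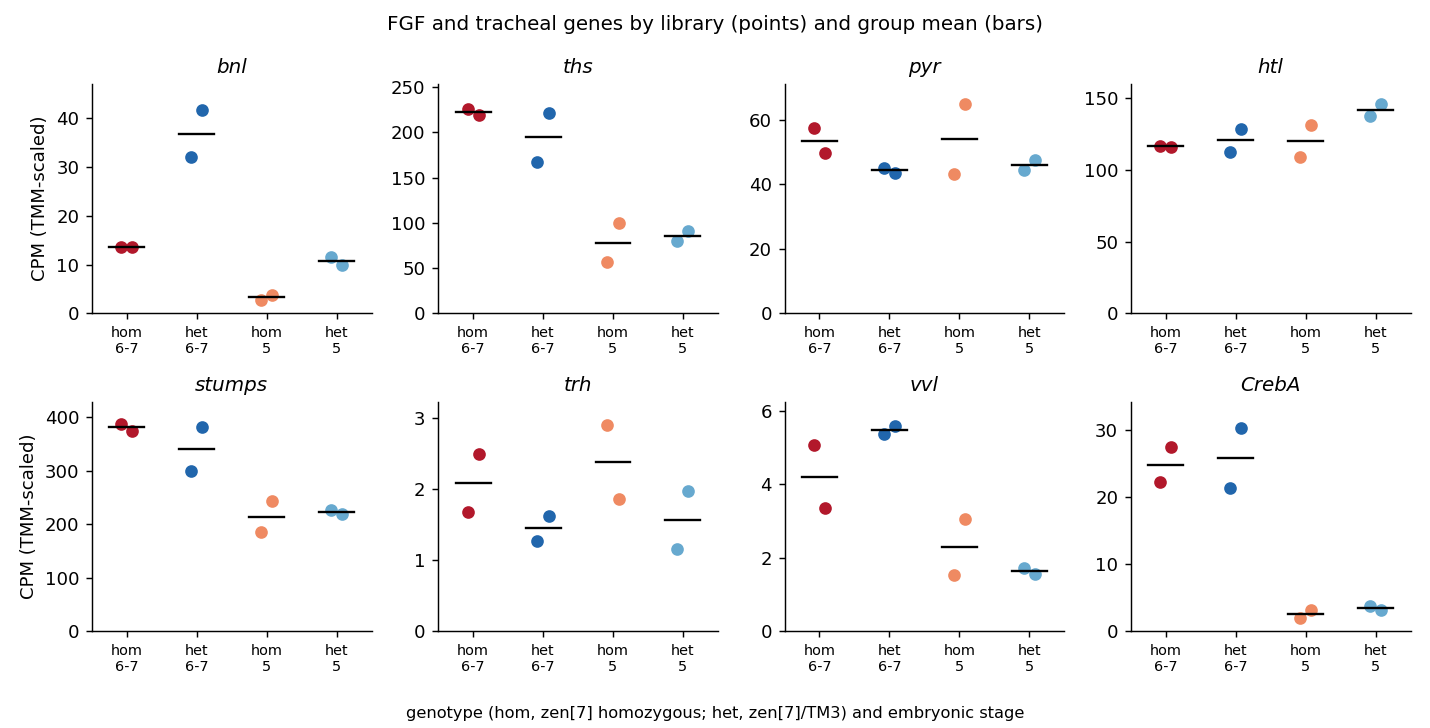
Level of each gene in CPM (TMM-scaled, linear axes from 0) in every library (points) with the mean of each group (horizontal lines), for zen[7] homozygotes (hom) and zen[7]/TM3, ftz-lacZ heterozygotes (het) at stage 6-7 and stage 5. In bnl the homozygous points lie below the heterozygous ones at both stages, 13.5 and 13.6 against 32.1 and 41.6 CPM at stage 6-7.

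The genotype comparison asks which of these transcripts differ between homozygotes and heterozygotes. Chromosome 3 differs between the genotypes along its whole length, so effects of zen and of other loci on it cannot be told apart. The ligand gene bnl was the single one of these genes that passed the test, and it was lower in homozygotes at both stages. It lies on the minus strand of arm 3R at 19794073 to 19836817 (BDGP6.54, FBgn0014135). At stage 6-7 bnl had 13.5 and 13.6 CPM in homozygotes, against 32.1 and 41.6 CPM in heterozygotes. The stage 5 libraries had 2.71 and 3.84 CPM in homozygotes, against 11.5 and 9.96 CPM in heterozygotes. The genotypes did not overlap at either stage, as held for 36.2% of all tested genes at stage 6-7 and 42.4% at stage 5. The homozygotes at stage 6-7 stood only slightly above the heterozygotes of stage 5. The raw counts behind these levels were 502 and 463 reads in homozygotes and 1164 and 1435 reads in heterozygotes at stage 6-7, and 73 and 130 reads in homozygotes and 397 and 360 reads in heterozygotes at stage 5.

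At stage 6-7 bnl averaged 13.6 ± 0.0329 CPM in homozygotes and 36.8 ± 6.72 CPM in heterozygotes (SD, n = 2 libraries each), 2.71-fold lower in homozygotes. The log2 difference was -1.44 (SE 0.156, 95% interval -1.78 to -1.11), with a p of 0.000113 in edgeR's quasi-likelihood test after Benjamini-Hochberg adjustment. At stage 5 bnl averaged 3.28 ± 0.795 CPM in homozygotes and 10.7 ± 1.10 CPM in heterozygotes, 3.24-fold lower in homozygotes, with a log2 difference of -1.70 (SE 0.184, 95% interval -2.09 to -1.30, adjusted p = 0.000224). Averaged over the stages the log2 difference was -1.57 (SE 0.121, adjusted p = 2.95e-06). By p-value bnl ranked 25 of 9360 tested genes at stage 6-7 and 13 at stage 5. In whole embryos, fewer cells that express a gene and less RNA per cell cannot be told apart.

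The call of bnl held in all 18 alternatives at each stage. Without homozygous stage 5 replicate 1 its log2 difference at stage 5 was -1.49 (adjusted p = 0.00161), and without replicate 2 it was -2.03 (adjusted p = 0.00013). Without heterozygous stage 6-7 replicate 1 the difference at stage 6-7 was -1.62 (adjusted p = 9.65e-05), and without replicate 2 it was -1.24 (adjusted p = 0.00164). Over the whole table, 1.25% of tested genes were called lower at stage 6-7 and 1.34% at stage 5, against 1 of the 8 genes here at each stage. On chromosome 3, which differs between the genotypes along its whole length, these shares were 2.05% and 1.73%. Of the 16 tested genes that start within 100 kb of the start of bnl, 0 were called by edgeR, DESeq2 or limma-voom at either stage, with 0 at an unadjusted p under 0.05 at stage 6-7 and 2 higher and 1 lower at stage 5, and their median log2 differences were 0.03 at stage 6-7 and 0.01 at stage 5. Within the span of bnl the annotation places a tRNA gene on the other strand, which shares 0 bases with its exons.

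Some markers of the amnioserosa, the dorsal tissue that needs zen, moved the same way as bnl. Of the 14 markers, 8 were called lower and 0 higher in homozygotes at stage 6-7, and 7 lower and 0 higher at stage 5. The remaining 6 and 7 were not called. Among these at both stages were Doc1, Doc3, Kr, zen2 and zen (log2 0.18 and 0.40 for zen). The summed level of the 14 markers was 1161 and 1096 CPM in homozygotes, against 1771 and 1914 CPM in heterozygotes, at stage 6-7. At stage 5 it was 1203 and 1048 CPM in homozygotes, against 1467 and 1603 CPM in heterozygotes, and none of the 14 was at 0 in any group. The part of the amnioserosa in the level of bnl was not tested.

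The ligands of Htl did not pass the genotype test. The genes pyr (11712263 to 11726345) and ths (11756817 to 11814424) lie on the plus strand of arm 2R, 30.5 kb apart, off the chromosome that carries zen. At stage 6-7 ths had 226 and 219 CPM in homozygotes, against 167 and 222 CPM in heterozygotes, and the groups overlapped. At stage 5 ths had 56.7 and 99.7 CPM in homozygotes, against 80.2 and 91.1 CPM in heterozygotes, with the heterozygotes between the homozygous libraries. The log2 difference of ths was 0.19 at stage 6-7 (95% interval -0.44 to 0.83, adjusted p = 1) and -0.13 at stage 5 (95% interval -0.78 to 0.52, adjusted p = 0.868). The stage 5 value depended on which homozygous library was kept. Without homozygous replicate 1 it was 0.21, and without replicate 2 it was -0.64. Each of these fits leaves 1 homozygous library at stage 5.

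At stage 6-7 pyr had 57.4 and 49.8 CPM in homozygotes, against 45.1 and 43.6 CPM in heterozygotes. The groups did not overlap, as held for 36.2% of all tested genes, and the log2 difference of 0.27 did not pass (95% interval -0.06 to 0.61, adjusted p = 0.876). At stage 5 pyr had 43.1 and 64.8 CPM in homozygotes, against 44.5 and 47.5 CPM in heterozygotes, with a log2 difference of 0.23 (95% interval -0.10 to 0.56, adjusted p = 0.558). The homozygous libraries lay on either side of the heterozygous ones. Without homozygous replicate 1 the difference at stage 5 was 0.49 and passed the threshold (adjusted p = 0.0431), and without replicate 2 it was -0.14 (adjusted p = 0.459). Averaged over the stages the difference was 0.25 (adjusted p = 0.378), and 0.38 without homozygous stage 5 replicate 1, which passed (adjusted p = 0.0075).

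**Figure D2:**
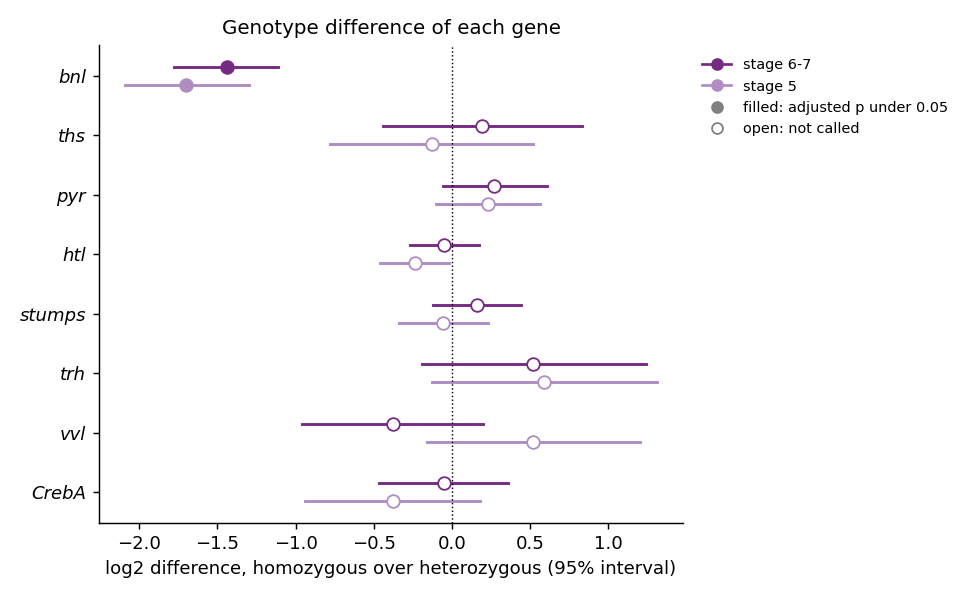
Log2 difference of each gene, homozygous over heterozygous, at stage 6-7 (dark) and stage 5 (light), with 95% intervals; filled points had an adjusted p under 0.05. The points of bnl, at -1.44 and -1.70, are the only filled ones.

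The receptor gene htl and its adaptor gene stumps, both transcribed in the mesoderm, did not pass the genotype test at either stage. The gene htl lies on the minus strand of 3R at 18045216 to 18052984. It had 117 and 116 CPM in homozygotes, against 112 and 129 CPM in heterozygotes, at stage 6-7, where the homozygotes lay inside the range of the heterozygotes (log2 -0.05, 95% interval -0.27 to 0.17, adjusted p = 1). The stage 5 level was 109 and 131 CPM in homozygotes, against 138 and 146 CPM in heterozygotes. These groups did not overlap, as held for 42.4% of all tested genes, and the log2 difference of -0.24 (95% interval -0.46 to -0.02) did not pass over the whole table (adjusted p = 0.347). Without homozygous replicate 1 it was -0.12, and without replicate 2 it was -0.43. Each of these fits leaves 1 homozygous library at stage 5. Averaged over the stages the log2 difference of htl was -0.24 without replicate 2, against -0.15 with all libraries (adjusted p = 0.48).

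The gene stumps lies on the plus strand of 3R at 14577217 to 14608079. At stage 6-7 it had 388 and 376 CPM in homozygotes, against 300.0 and 383 CPM in heterozygotes, and at stage 5 it had 185 and 244 CPM in homozygotes, against 227 and 220.1 CPM in heterozygotes. The groups overlapped at both stages. The log2 differences were 0.16 (95% interval -0.12 to 0.44, adjusted p = 1) and -0.06 (95% interval -0.34 to 0.23, adjusted p = 0.874). Without homozygous replicate 1 the stage 5 difference was 0.12 (adjusted p = 0.864), and without replicate 2 it was -0.32 (adjusted p = 0.0875). Of the 23 tested genes that start within 100 kb of stumps, 2 were called higher in homozygotes at stage 6-7 and 4 at stage 5, and 0 lower at either, where 0.524% and 0.288% of all tested genes were called higher. Among them was CG8066, with log2 differences of 1.23 and 1.48 (SE 0.162 and 0.164). The others were asRNA:CR44095 at both stages and Cys and CG31313 at stage 5, and reads of an antisense gene and its partner cannot be told apart here. Of the 5 such neighbours of htl, DNaseII was called lower at both stages, with log2 differences of -1.11 and -0.88. The gene sr, an early growth response type zinc-finger gene, was called lower at stage 6-7 (log2 -2.02, SE 0.466, adjusted p = 0.0434). Of tested genes on chromosome 3, 2.05% were called lower at stage 6-7 and 1.73% at stage 5.

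The regulators of the tracheal and salivary primordia did not pass the genotype test at either stage, and those with the fewest counts had the widest intervals. The gene trh (minus strand of 3L, 366524 to 392633) had 1.67 and 2.50 CPM in homozygotes, against 1.27 and 1.62 CPM in heterozygotes, at stage 6-7, and 2.90 and 1.86 CPM in homozygotes, against 1.16 and 1.97 CPM in heterozygotes, at stage 5. These were 40 to 85 reads per library. The groups did not overlap at stage 6-7, as held for 36.2% of all tested genes, and overlapped at stage 5. The log2 differences were 0.52 at stage 6-7 (95% interval -0.19 to 1.24, adjusted p = 0.977) and 0.59 at stage 5 (95% interval -0.13 to 1.31, adjusted p = 0.486). Averaged over the stages trh stood at 0.56 (95% interval 0.05 to 1.06), with an adjusted p of 0.354. At stage 5 the difference was 0.24 without homozygous replicate 1 (adjusted p = 0.937) and 0.84 without replicate 2 (adjusted p = 0.18). The annotation places lncRNA:CR45378 on the same strand, sharing 525 of the 5502 exon bases of trh, so reads there may not have been assigned to trh.

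The gene vvl (plus strand of 3L, 6790158 to 6794941) had 5.07 and 3.35 CPM in homozygotes, against 5.37 and 5.59 CPM in heterozygotes, at stage 6-7. At stage 5 vvl had 1.52 and 3.07 CPM in homozygotes, against 1.71 and 1.55 CPM in heterozygotes. At stage 6-7 the homozygous libraries lay below the heterozygous ones, and 36.2% of all tested genes had groups that did not overlap. At stage 5 the homozygous libraries of vvl lay on either side of the heterozygous ones. The log2 differences were -0.38 (95% interval -0.96 to 0.20, adjusted p = 1) and 0.52 (95% interval -0.16 to 1.20, adjusted p = 0.525). Without homozygous stage 5 replicate 1 the stage 5 difference was 0.91 (adjusted p = 0.21), and without replicate 2 it was -0.14 (adjusted p = 0.829).

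The gene CrebA (plus strand of 3L, 15535395 to 15553214) had 22.2 and 27.4 CPM in homozygotes, against 21.3 and 30.2 CPM in heterozygotes, at stage 6-7, and 2.01 and 3.19 CPM in homozygotes, against 3.77 and 3.10 CPM in heterozygotes, at stage 5. The groups overlapped at both stages. The log2 differences were -0.05 (95% interval -0.47 to 0.36, adjusted p = 1) and -0.38 (95% interval -0.94 to 0.18, adjusted p = 0.567). Without homozygous stage 5 replicate 1 the stage 5 difference was -0.11 (adjusted p = 0.966), and without replicate 2 it was -0.82 (adjusted p = 0.118). Of the 21 tested neighbours of CrebA within 100 kb, Z600 and CG7857 were called lower at stage 6-7, with log2 differences of -2.92 and -1.62. At that stage 2.05% of tested genes on chromosome 3 were called lower. Of the 11 neighbours of trh and the 8 of vvl, 0 were called at either stage by edgeR, DESeq2 or limma-voom. At an unadjusted p under 0.05 those of trh had 1 higher at stage 6-7 and 1 lower at stage 5, and those of vvl 1 higher and 1 lower at stage 6-7.

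The stage 6-7 differences also varied with the heterozygous library left out. Without replicate 1 of that group they were 0.0036 for ths, 0.30 for pyr, -0.15 for htl, -0.006 for stumps, 0.35 for trh, -0.41 for vvl and -0.29 for CrebA. Without its replicate 2 they were 0.41 for ths, 0.25 for pyr, 0.05 for htl, 0.35 for stumps, 0.71 for trh, -0.35 for vvl and 0.22 for CrebA. None of these 7 genes was called in either fit.

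Between the stages, 5 of the 8 genes rose in each genotype and 0 fell by edgeR, while 31.1% of all tested genes rose in homozygotes and 28.4% in heterozygotes, and 29% and 26.5% fell. By DESeq2 and limma-voom 0 fell too, and htl in heterozygotes alone was lower at an unadjusted p under 0.05. Those that rose were the same in both: bnl, ths, stumps, vvl and CrebA. The largest rise was that of CrebA, which was 9.39-fold higher at stage 6-7 in homozygotes (24.8 ± 3.74 CPM at stage 6-7 and 2.60 ± 0.835 CPM at stage 5, SD, n = 2 libraries each). In heterozygotes it was 7.49-fold higher (25.7 ± 6.35 CPM at stage 6-7 and 3.44 ± 0.475 CPM at stage 5). Its log2 changes were 3.23 (SE 0.233, adjusted p = 1.54e-07) and 2.90 (SE 0.222, adjusted p = 3.03e-07). All stage 6-7 libraries stood above all stage 5 libraries for CrebA. The share of all tested genes with such a separation is not reported here.

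The ligand gene bnl rose in both genotypes. It was 4.10-fold higher at stage 6-7 in homozygotes (log2 2.03, SE 0.182, adjusted p = 4.61e-07) and 3.43-fold higher in heterozygotes (log2 1.78, SE 0.159, adjusted p = 5.19e-07). The difference between these rises was 0.26 on the log2 scale (95% interval -0.26 to 0.77, adjusted p = 0.859). The ligand gene ths rose by log2 1.51 in homozygotes and 1.18 in heterozygotes (SE 0.270 and 0.268, adjusted p = 0.00295 and 0.00932). Its call in heterozygotes was lost without heterozygous stage 6-7 replicate 2 (log2 0.96, adjusted p = 0.0534). The adaptor gene stumps rose by log2 0.83 in homozygotes and 0.61 in heterozygotes (SE 0.132 and 0.131, adjusted p = 0.000137 and 0.00157). In homozygotes, the rises without stage 5 replicate 1 were 1.81 for bnl, 1.15 for ths, 0.64 for stumps and 2.95 for CrebA, and without replicate 2 they were 2.33 for bnl, 1.98 for ths, 1.06 for stumps and 3.63 for CrebA, all called.

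The factor gene vvl rose by log2 0.85 in homozygotes (SE 0.292, adjusted p = 0.0213) and 1.75 in heterozygotes (SE 0.296, adjusted p = 0.00018). In homozygotes the call was lost without stage 5 replicate 1 (log2 0.45, adjusted p = 0.2) or stage 6-7 replicate 1 (log2 0.52, adjusted p = 0.223), and without stage 5 replicate 2 the rise was 1.48 (adjusted p = 0.00126). The difference between the genotypes in the change of vvl was -0.90 (95% interval -1.79 to 0.00), which did not pass over the whole table (adjusted p = 0.742). By edgeR 0 of the 8 genes passed this test of a genotype difference that changes with stage. The same number passed by DESeq2 and by limma-voom, and vvl alone had an unadjusted p under 0.05. Of all tested genes 0.0748% passed. Without homozygous stage 5 replicate 2 this difference was 0.84 for ths, against 0.32 with all libraries.

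**Figure D3:**
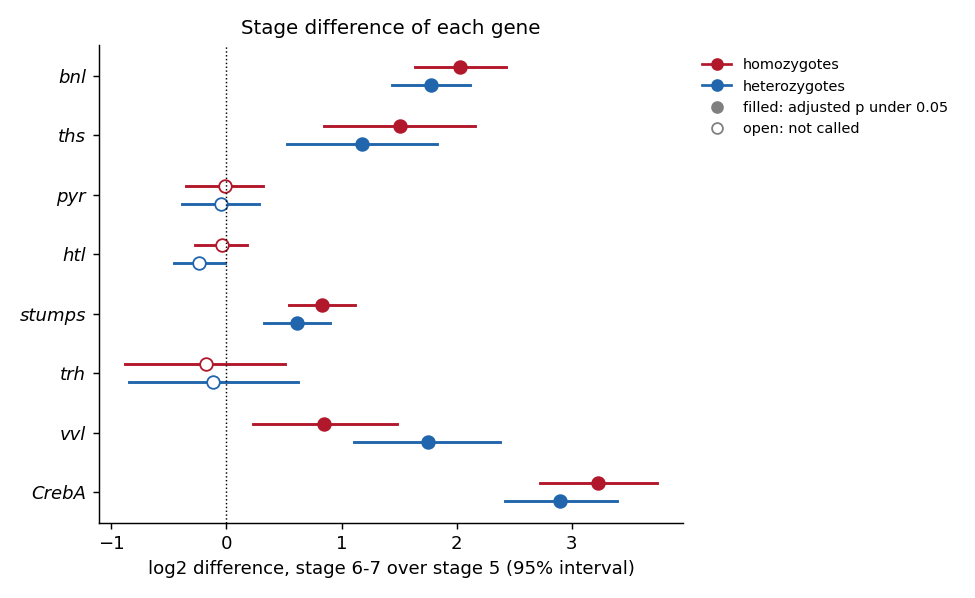
Log2 difference of each gene, stage 6-7 over stage 5, in homozygotes (red) and heterozygotes (blue), with 95% intervals; filled points had an adjusted p under 0.05. CrebA, at 3.23 and 2.90, lies farthest to the right, and pyr, htl and trh lie near 0 with open points.

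The genes pyr, trh and htl did not pass the test between the stages. The log2 difference of pyr was -0.01 in homozygotes (95% interval -0.35 to 0.32, adjusted p = 0.952) and -0.05 in heterozygotes (95% interval -0.39 to 0.28, adjusted p = 0.789). In homozygotes it was -0.28 without stage 5 replicate 1 (adjusted p = 0.0452) and 0.32 without replicate 2 (adjusted p = 0.0244), opposite directions that each passed. For trh it was -0.18 and -0.12 (adjusted p = 0.651 and 0.791). For htl it was -0.04 in homozygotes (adjusted p = 0.734) and -0.24 in heterozygotes (95% interval -0.46 to -0.01, adjusted p = 0.0673), and the value in heterozygotes passed in 6 of 17 alternatives. These included the fits without homozygous stage 5 replicate 1 (adjusted p = 0.0139) or 2 (adjusted p = 0.00674) and without heterozygous stage 6-7 replicate 2 (log2 -0.34, adjusted p = 0.0396).

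Set against exon length, stumps, htl, ths and pyr were the most abundant in every group. Levels here are CPM per kb of merged exon. At stage 6-7 the order in homozygotes was stumps at 68.2, htl at 28.4, ths at 27.6, pyr at 16.7, CrebA at 5.51, bnl at 2.98, vvl at 0.880 and trh at 0.379, and no neighbours in it overlapped. In heterozygotes it was stumps at 61.0, htl at 29.4, ths at 24.1, pyr at 13.8, bnl at 8.08, CrebA at 5.72, vvl at 1.15 and trh at 0.263, and only htl and ths overlapped. So bnl came after CrebA in homozygotes and before it in heterozygotes. At stage 5 the order was stumps, htl, pyr, ths, bnl, CrebA, vvl and trh in both genotypes. In homozygotes each of the last 4 overlapped its neighbour in this order, and in heterozygotes only vvl and trh overlapped.

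Among the ligand transcripts, the share of bnl in the summed CPM per kb of bnl, ths and pyr was 6.08% and 6.54% in homozygotes, against 16.8% and 18.2% in heterozygotes, at stage 6-7, and 2.83% and 2.52% in homozygotes, against 9.59% and 7.73% in heterozygotes, at stage 5. The homozygous shares lay below the heterozygous ones at both stages. The ratio of ths to pyr per kb was 1.57 and 1.75 in homozygotes and 1.48 and 2.03 in heterozygotes at stage 6-7, and 0.524 and 0.613 in homozygotes and 0.717 and 0.763 in heterozygotes at stage 5. Both genotypes thus had more pyr than ths per kb at stage 5 and more ths than pyr at stage 6-7. The ratio of stumps to htl per kb was 2.43 and 2.37 in homozygotes and 1.95 and 2.18 in heterozygotes at stage 6-7, against 1.24 and 1.36 in homozygotes and 1.21 and 1.10 in heterozygotes at stage 5.

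**Figure D4:**
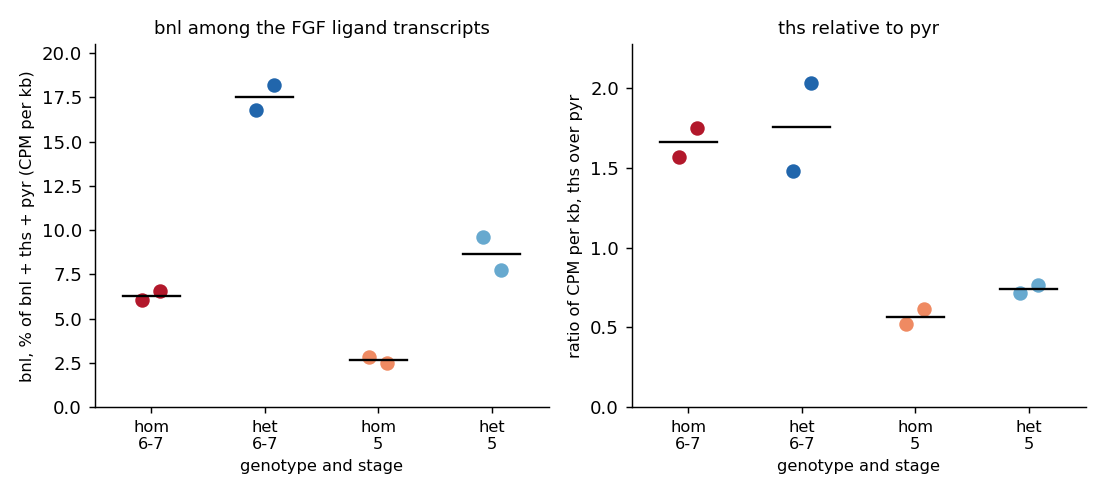
Left, bnl as a percent of the summed CPM per kb of bnl, ths and pyr; right, the ratio of ths to pyr in CPM per kb (points, libraries; horizontal lines, means). Homozygous libraries hold 6.08% and 6.54% bnl at stage 6-7 beside 16.8% and 18.2% in heterozygotes, and the ratio is above 1 in the stage 6-7 libraries and below it in those of stage 5.

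Other genes of the pathway were described from lists. Of 16 genes of FGF and Ras/MAP kinase transduction, 14 had a row and were tested. By edgeR 0 of them passed the genotype test at either stage, with 2 lower at an unadjusted p under 0.05 at stage 6-7 and 4 at stage 5. DESeq2 called 0 and 4 lower, and limma-voom 0 and 1. Of all 9360 tested genes DESeq2 called 134 and 220 lower at these stages, and limma-voom 116 and 114. The list's median log2 difference was -0.06 at stage 6-7 and -0.10 at stage 5, against 0.01 and 0 over all tested genes. Averaged over the stages, where 2.13% of all tested genes were called lower, 2 fell and 0 rose. These were sfl, an enzyme of heparan sulfate synthesis that FGF reception needs, and pnt, the ETS factor at the end of the cascade. The gene sfl lies on arm 3L and pnt on 3R.

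The gene sfl averaged 259 ± 1.12 CPM in homozygotes, against 318 ± 27.0 CPM in heterozygotes, at stage 6-7, and 202 ± 24.7 CPM in homozygotes, against 269 ± 25.9 CPM in heterozygotes, at stage 5 (log2 -0.36 over both stages, adjusted p = 0.0133). The gene pnt averaged 87.6 ± 2.02 CPM in homozygotes, against 102 ± 21.3 CPM in heterozygotes, at stage 6-7, and 27.1 ± 5.52 CPM in homozygotes, against 42.5 ± 0.506 CPM in heterozygotes, at stage 5 (log2 -0.43, adjusted p = 0.0435). The call of sfl held in 13 of 17 alternatives and was lost without heterozygous stage 5 replicate 2 (adjusted p = 0.0898), homozygous stage 6-7 replicate 1 (0.0505) or heterozygous stage 6-7 replicate 2 (0.0644). The call of pnt held in 7 of 17, and of the 8 fits that leave out a library it passed only without homozygous stage 5 replicate 2 (adjusted p = 0.00128) and heterozygous stage 6-7 replicate 1 (0.00636). The next by p were sgl (log2 -0.27, adjusted p = 0.114) and sty, the feedback inhibitor of receptor tyrosine kinases (log2 -0.35, adjusted p = 0.155). Without homozygous stage 5 replicate 2, 7 of the 14 were called lower at stage 5, in a fit that called 691 of all 9698 tested genes lower, against 125 of 9360 with all libraries. Without replicate 1 a single one was, csw. The summed level of the list was 1925 and 1876 CPM in homozygotes, against 1939 and 2134 CPM in heterozygotes, at stage 6-7, and 1576 and 1760 CPM in homozygotes, against 1781 and 1819 CPM in heterozygotes, at stage 5.

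Of 16 tracheal genes 14 were tested, and by edgeR 0 passed at stage 6-7 and 1, lower, at stage 5. Of all tested genes edgeR called 1.25% lower at stage 6-7 and 1.34% at stage 5. At stage 6-7, 1 was higher and 1 lower at an unadjusted p under 0.05, and 0 passed by DESeq2 and limma-voom. At stage 5, 2 were lower at an unadjusted p under 0.05, DESeq2 called 2 lower and limma-voom 1. Of all 9360 tested genes DESeq2 called 220 lower at stage 5 and limma-voom 114. The gene called by edgeR was tkv, a type I receptor for Dpp, at 80.1 ± 5.91 CPM in homozygotes, against 130.4 ± 1.77 CPM in heterozygotes, at stage 5 (log2 -0.70, SE 0.134, adjusted p = 0.0205). Its call was lost without homozygous stage 5 replicate 1 (adjusted p = 0.177) or heterozygous stage 5 replicate 1 or 2 (adjusted p = 0.129 and 0.077). The others named by the smallest p over both stages were Stat92E (log2 -0.19), rho (-0.24) and the JAK/STAT ligand gene upd1 (0.18), with adjusted p of 0.123, 0.202 and 0.368.

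Of 8 mesoderm genes, which share the tissue of htl and stumps, 0 passed by edgeR at either stage, with 0 at an unadjusted p under 0.05 at stage 6-7 and 1 at stage 5, and 0 by DESeq2 and limma-voom. Their median log2 difference was 0.08 at stage 6-7 and -0.06 at stage 5. Between the stages Mef2, tin, zfh1 and bap rose in both genotypes, by log2 3.18, 3.41, 3.48 and 3.28 in homozygotes, and eve fell by 0.98. The level of bap was low, with a mean of 0.34 CPM over the libraries and an SE of 0.876 for its rise in homozygotes. Of all tested genes 31.1% rose and 29% fell in homozygotes. In the genotype effect averaged over stages the smallest p were those of Mef2 (log2 -0.44, adjusted p = 0.335) and eve (log2 0.10, adjusted p = 0.669), followed by tin (log2 -0.32, adjusted p = 0.705) and zfh1 (log2 -0.38, adjusted p = 0.717). Without homozygous stage 5 replicate 2, tin and zfh1 were called lower at stage 5, in a fit that leaves 1 homozygous library at that stage. That fit called many more genes lower over the whole table than the fit with all libraries. The calls of tin and zfh1 in it therefore do not single out the mesoderm list.

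Of 10 salivary gland genes 8 were tested, and by edgeR pip, a sulfotransferase gene on arm 3L, was the 1 that fell, at both stages. Over the whole table, 1.25% of tested genes were called lower at stage 6-7 and 1.34% at stage 5. At stage 6-7, 3 of the list were lower at an unadjusted p under 0.05, and DESeq2 called 2 of them lower and limma-voom 1. At stage 5, 4 were lower at an unadjusted p under 0.05, and DESeq2 called 2 lower and limma-voom 0. The gene pip averaged 0.181 ± 0.0488 CPM in homozygotes, against 3.43 ± 1.54 CPM in heterozygotes, at stage 6-7 (log2 -4.20, SE 0.462, adjusted p = 0.000125), and 0.412 ± 0.206 CPM in homozygotes, against 1.52 ± 0.00954 CPM in heterozygotes, at stage 5 (log2 -1.91, SE 0.444, adjusted p = 0.0477). The stage 6-7 call held in 17 of 17 alternatives. The stage 5 call held in 11 of 17 and was lost without homozygous replicate 2 (log2 -1.48, adjusted p = 0.0875) and without heterozygous replicate 1 or 2 (adjusted p = 0.203 and 0.167). The regulators next in the list by p did not pass over both stages, with log2 differences of -0.23 for fkh, -0.20 for hkb and -0.21 for tsh (adjusted p = 0.0828, 0.338 and 0.544). Of 11 secretory pathway genes, the class that CrebA activates, 0 passed at either stage by edgeR, DESeq2 or limma-voom, with 1 at an unadjusted p under 0.05 at stage 6-7. Their median log2 difference was -0.01 at stage 6-7 and 0.04 at stage 5. Over both stages the smallest p were those of TRAM, Sec61beta, Srp54 and Sec31, with log2 differences of 0.16, 0.07, 0.05 and -0.06 (adjusted p = 0.368, 0.731, 0.8 and 0.811). Between the stages, 4 of them rose and 6 fell in homozygotes, and 4 rose and 5 fell in heterozygotes. Of all tested genes 31.1% rose and 29% fell in homozygotes, and 28.4% rose and 26.5% fell in heterozygotes.

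The genes whose levels followed those of the named genes most closely over the 8 libraries were found by Pearson's r of log2 CPM among 6171 other tested genes. All of these levels share the 8 libraries, and those of genes that changed between the stages share that change too. Picking the closest of 6171 genes over 8 libraries raises r by itself, and no r was tested. The genes pyr, htl and trh did not pass the test between the stages. For bnl the closest genes were FBgn0250876, an ID without a symbol in the annotation (r = 0.991), and tmod, a tropomodulin gene on 3R (r = 0.988). FBgn0250876 averaged 124 CPM in homozygotes, against 208 CPM in heterozygotes, at stage 6-7, and 44.3 CPM in homozygotes, against 95.5 CPM in heterozygotes, at stage 5. The levels of tmod differed less, at 144 CPM in homozygotes, against 185 CPM in heterozygotes, at stage 6-7, and 113 against 143 CPM at stage 5. For htl the closest genes were zld, the activator of the zygotic genome (r = 0.98), and osa (r = 0.978). For ths they were Dscam1 (r = 0.998) and Nup154 (r = 0.997), for stumps CG1951 (r = 0.995) and smash (r = 0.993), and for CrebA Wdr59 and Cog2 (r = 0.998 each). For vvl they were CG11882 (r = 0.979) and Ogg1 (r = 0.977), for pyr Miga (r = 0.939) and Cog3 (r = 0.919), and for trh Zyx (r = 0.923) and CG9386 (r = 0.902). The group means of Miga ran from 46.5 to 52.1 CPM and those of Cog3 from 24.2 to 25.1 CPM. Those of Zyx ran from 114 to 120 CPM and those of CG9386 from 9.27 to 10.7 CPM.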

How the data were processed

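Raw read counts per gene were deposited by the authors, a file for each library, without normalization; STAR and HTSeq are named in the submitters' processing notes. No build, annotation or strand setting is named there, so counts of overlapping genes are uncertain. HTSeq summary lines, 12.89% to 18.22% of each table's total, were left out. Symbols, positions and merged exon lengths came from Ensembl 115 (BDGP6.54) by gene ID (17188 matched, 280 did not).

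Counts were filtered with filterByExpr (minimum count 10), scaled with TMM and fitted over all 8 libraries with edgeR 4.0.16 in R 4.3.3 (glmQLFit, robust, and glmQLFTest, 1 mean per group), with Benjamini-Hochberg adjustment over 9360 genes and calls under 0.05. The SE is the log2 difference over the square root of F, and intervals are at 95%. The fit was checked on simulated counts. Alternatives used DESeq2 1.42.0, limma 3.58.1 (voom), other scalings and filters, replicate blocks, subsets of libraries and glmTreat (1.5-fold). Replicate numbers are shared by the groups, but the labels do not say whether same-numbered libraries belong together.

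Members and lists were chosen with earlier results of these data known. All members are named. Of each list, up to 4 genes of smallest p over both stages are named, and for likeness the closest genes whose mean reached 5 CPM (2 were sought per member). Called neighbours within 100 kb, csw, bap and Hml were named after their values were seen. Of the lists, cnk, Gap1 and esg matched no row by symbol, and upd3, eyg and toe were below the filter.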

Additional observations from a re-analysis of the deposited data

How the results depend on the processing

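Across the alternatives bnl kept its direction and its calls in both genotype comparisons (18 alternatives each), their average and both stage changes (17 each). The count of genes called, out of 8, moved in few. With all libraries it was 1 at stage 5, 1 averaged over the stages and 0 for the changing genotype difference. These counts varied with the library left out, in fits that leave 1 library in a group. Against a 1.5-fold change the stage effect in heterozygotes gave 3 in place of 5, by construction. Replicate differences of the groups correlated at -0.06 to 0.04. These values gave no sign that the numbers pair the libraries, but they cannot exclude it. With the replicate block, 1 gene was called at stage 6-7 and 1 at stage 5, as without it, and with the block htl was also called in the stage effect of heterozygotes (log2 -0.24, adjusted p = 0.0281).

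Directions turned only for values that were not called with all libraries, and the cause was not tested. The stage change of pyr in homozygotes, -0.01 with all libraries, passed in both directions when a stage 5 homozygous library was left out (-0.28 and 0.32). With library totals alone, which raised the median stage change of all genes to 0.20 in homozygotes and 0.17 in heterozygotes, and the calls to 3638 higher and 1987 lower in homozygotes (2911 and 2718 with TMM) and 3352 and 1935 in heterozygotes (2660 and 2482), the stage changes were 0.18 for pyr, 0.15 for htl and 0.02 for trh in homozygotes, and 0.10 for pyr and 0.04 for trh in heterozygotes, all below that shift. In homozygotes the stage change of pyr was 0.02 with at least 10 CPM in 2 libraries, 0.0063 with limma-voom and 0.0015 with the replicate block.

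Leaving out 1 library in turn, the genotype differences at stage 5 ran from -0.64 to 0.21 for ths, -0.14 to 0.49 for pyr, -0.32 to 0.12 for stumps and -0.14 to 0.91 for vvl. At stage 6-7 they ran from -0.15 to 0.05 for htl, -0.006 to 0.35 for stumps and -0.29 to 0.22 for CrebA. Averaged they ran from -0.23 to 0.21 for ths, -0.08 to 0.14 for stumps and -0.26 to 0.27 for vvl. Differences between the genotype effects ran from -0.02 to 0.84 for ths, -0.21 to 0.41 for pyr and -0.46 to 0.29 for trh. Stage changes in homozygotes ran from -0.28 to 0.32 for pyr, -0.18 to 0.11 for htl and -0.49 to 0.15 for trh, and in heterozygotes from -0.45 to 0.28 for trh. A library left out leaves 1 in its group, assumed to vary like the other groups.

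Calls over the whole table, the background here, moved more. At stage 5 they numbered 152, and 66 without heterozygous stage 5 replicate 1, 67 without its replicate 2, 805 without homozygous stage 5 replicate 2, 397 without the low-count filter, 255 with DESeq2, 249 with the replicate block, 340 with the block within stage and 25 against 1.5-fold. At stage 6-7 they numbered 166, and 285 without the filter, 88 with at least 10 CPM, 63 against 1.5-fold, and 89 to 218 without a library in turn. The alternatives for the lists were chosen after seeing the data. The low counts of trh and vvl limit what differences could be detected for them.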
